A study of Mus musculus with 9 samples.

Results

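LPS-treated macrophages were compared with control macrophages, with 3 libraries in each group, across all genes in the count table. These are 6 of the 9 libraries of the series. The cells were bone marrow-derived macrophages, grown in culture from marrow precursors of Balb/c mice. The labels name the genotype as wild type and the age as 6 week. Both groups share this strain, genotype and age, and differ by the treatment in the labels (control or LPS). The labels spell out no abbreviation and give neither a dose nor a time. The other 3 libraries, LPS plus BHB, are in neither group compared. They enter the filter on low counts, the scaling of the libraries and the estimate of the spread. The 6 libraries were taken by their treatment label, with no measured value used.

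LPS is the usual abbreviation of lipopolysaccharide, a component of the outer membrane of Gram-negative bacteria. It is carried by CD14 to a complex of Toll-like receptor 4 (Tlr4) and MD-2 (Ly96) on the macrophage. The adaptors Myd88 and Ticam1 then relay the signal to NF-kB, AP-1 and interferon regulatory factors, which switch on cytokines, chemokines and enzymes that act against microbes. Induced inhibitors such as I kappa B alpha and A20 limit the response.

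The 6 libraries held 29633411 to 32798920 counts. Of 46095 symbols in the table, 14026 had enough counts to be tested. Levels are CPM, the counts of a gene scaled to a common library size after TMM adjustment, a fold change is LPS over control on a log2 scale, and a gene is called where its p, from the quasi-likelihood test of edgeR and adjusted by the Benjamini-Hochberg method, is under 0.05. Nothing in the labels ties the replicates to separate cultures or animals, and p-values then reflect only how far these samples spread, which may be technical. All 10 macrophage markers were detected in every library. Their levels summed to 19705 to 23066 CPM in control and 9883 to 11263 CPM with LPS. Of these markers 3 were called higher (Cd14, Spi1, Adgre1) and 7 lower, against 38.4% higher and 41.4% lower of all genes tested. In bulk RNA, fewer cells of a type and less RNA per cell cannot be told apart. Most markers of other cell types were low. Of 9 lymphocyte markers only Cd4 could be tested. It was called lower, with 12.8, 12.5 and 12.1 CPM in control and 2.70, 3.32 and 2.16 CPM with LPS. Cd3e had 1 count over all 9 libraries and Ly6g had 3, and the 4 neutrophil markers that could be tested summed to 5.30 to 5.72 CPM in control and 1.89 to 3.56 CPM with LPS. The 3 tested dendritic cell markers of 8 summed to 2.60 to 3.28 CPM in control and 19.8 to 24.4 CPM with LPS. The LPS sum was mostly Zbtb46, with 0.591, 0.830 and 1.19 CPM in control against 21.9, 21.5 and 17.5 CPM with LPS. Ccr7 was also called higher (log2 fold change 1.57). Cd209a was called lower, with 1.30, 1.15 and 1.24 CPM in control and 0.0330, 0 and 0.0707 CPM with LPS. The 9 tested stromal markers of 10 summed to 16.8 to 27.9 CPM in control and 116 to 130 CPM with LPS. Pdgfrb made up most of the LPS sum. It had 2.82, 3.77 and 4.03 CPM in control and 101, 99.9 and 94.6 CPM with LPS. Kdr was the largest part of the control sum and was also called higher. It had 10.3, 10.9 and 12.2 CPM in control and 19.9, 20.95 and 17.2 CPM with LPS. The fibroblast collagens Col1a1, Col1a2 and Col3a1 were not called. The part of other cells in the results was not tested.

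Control replicates 2 and 3 held low levels of transcripts that LPS induces, and control replicate 1 hardly did. Over the 45 genes whose mean with LPS was 50 CPM or more, and 100 times or more the level of control replicate 1, control replicate 2 had a median of 0.808% of the LPS level and control replicate 3 had 0.942%, while control replicate 1 had 0.168%. Control replicate 2 was above control replicate 1 for 45 of the 45 genes and control replicate 3 for 44. The share was not the same for every gene. It ran in control replicate 2 from 0.0970% for Il12a to 3.82% for Il23a, and in control replicate 3 from 0.194% for Col27a1 to 4.27% for Il23a. Since the rule for these 45 genes used control replicate 1, the gap to it is a description. Where the fold of a gene described below moves by over 1.5 times against control replicate 1 alone, that value is given beside it. It is a log2 fold change, a ratio of levels with its exact 95% counting interval where that library has 1 to 3 counts, or a lower bound from a floor of 3 counts where it has 0. What the 2 libraries contain was not tested.

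**Figure D1:**
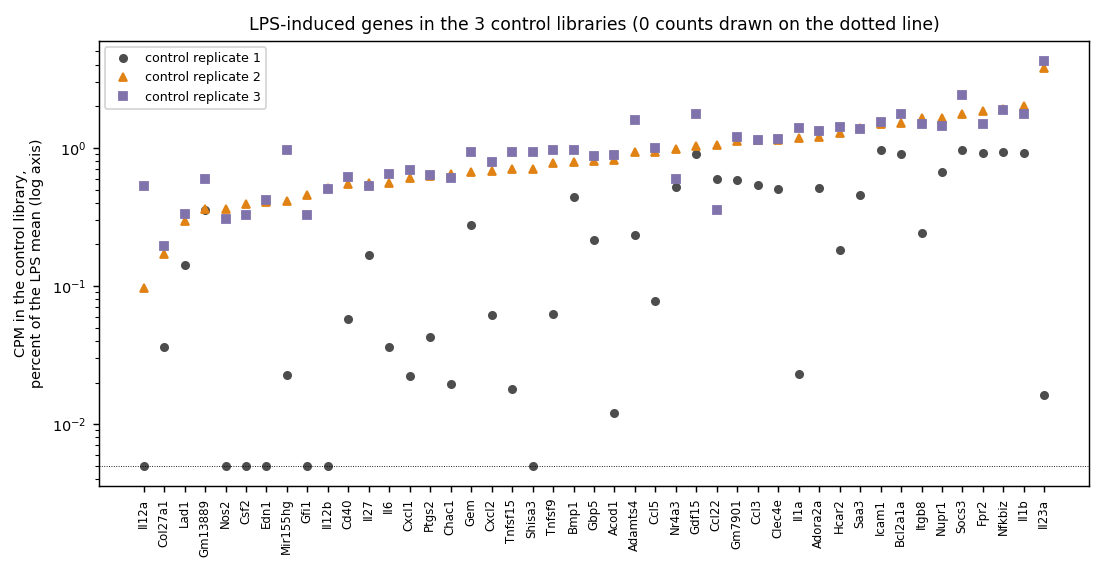
Level of 45 LPS-induced genes in each control library as a percent of the mean of the 3 LPS libraries, on a log axis, with one column per gene ordered by control replicate 2. Control replicates 2 and 3 lie close to each other at a median of 0.808% and 0.942%, and control replicate 1 lies lower, with 0 counts for 7 genes.

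The response covered most of the measured transcriptome. Of the 14026 genes tested, 11191 (79.8%) were called, with 5390 (38.4%) higher and 5801 (41.4%) lower with LPS. Called changes of at least 2-fold were found for 2626 genes (18.7%) upward and 3685 (26.3%) downward. Rises led among the largest changes, with 79 genes at least 128-fold higher and 51 at least 128-fold lower by the fitted fold. The median log2 fold change over all tested genes was -0.06, with a 10th percentile of -2.28 and a 90th percentile of 1.69. The values of the 3 libraries of one group lay all above or all below those of the other for 11602 genes (82.7%). Against control replicate 1 alone, 4975 genes (33.6% of 14807 tested) were called higher and 5189 (35%) lower. With library totals in place of TMM the median of all genes moved by -0.27 on the log2 scale and 4283 genes were called higher and 7084 lower, so small changes below are relative to the TMM scaling.

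**Figure D2:**
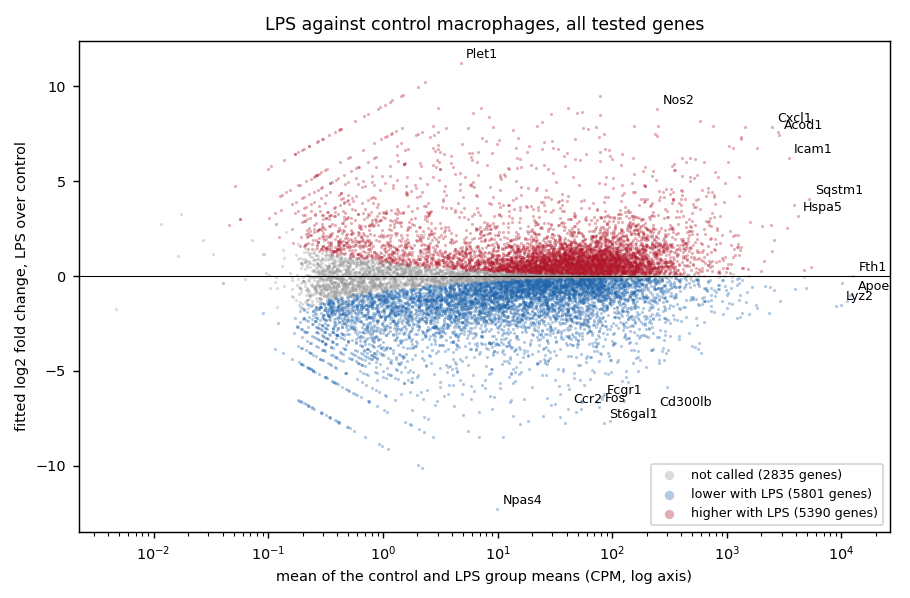
Fitted log2 fold change of each of the 14026 tested genes (vertical) against the mean of the 2 group means in CPM on a log axis (horizontal), with called genes in red (5390 higher) and blue (5801 lower) and 2835 others in grey. The points on parallel lines at the left are genes with few or 0 counts in one group.

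Chosen by size among called genes of at least 5 CPM whose groups did not overlap, the largest rises were those of Plet1, Col27a1 and Il12a. Plet1, which encodes a placenta-expressed surface protein, had 0 counts in all 3 control libraries against 8.84, 10.6 and 9.12 CPM with LPS. It was at least 347-fold higher against a floor of 3 counts over the control group. Kalrn, a guanine nucleotide exchange factor for small GTPases, had 0, 0.0535 and 0.0276 CPM in control and 12.003, 13.1 and 11.8 CPM with LPS (log2 fold change 8.61, SE 0.31, adjusted p = 3.09e-16, and at least 146-fold above control replicate 1). Lad1, a basement membrane anchoring protein, had 0.141, 0.294 and 0.331 CPM in control against 105.0, 103.8 and 87.8 CPM with LPS (log2 fold change 8.57, SE 0.46, adjusted p = 1.76e-06, or 9.42 against control replicate 1 alone). Gfi1, a transcriptional repressor of blood cells, had 0, 0.268 and 0.193 CPM in the control libraries and 57.5, 59.1 and 59.3 CPM in the LPS libraries (log2 fold change 8.52, SE 0.37, adjusted p = 1.10e-07, and at least 694-fold above control replicate 1). Bcat1, the cytosolic enzyme that transaminates branched-chain amino acids, had 0.0282, 0.0268 and 0.0828 CPM in control and 17.8, 19.5 and 13.2 CPM with LPS (log2 fold change 8.40, SE 0.40, adjusted p = 6.32e-12, with a ratio to control replicate 1 of 598, interval 107 to 23601). Aqp9, a channel for water and glycerol, had 0.0563, 0.107 and 0.359 CPM in control against 49.5, 50.4 and 46.2 CPM with LPS (log2 fold change 8.09, SE 0.23, adjusted p = 5.50e-15, with a ratio to control replicate 1 of 864, interval 239 to 7136). In each of these 5 genes the lowest LPS library lay far above the highest control library. The rule asked for large changes without overlap, so this gap is part of the choice.

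Against control replicate 1 alone the largest rises, by the same minimum level, were those of Il12b and Nos2. Il12b, with 0 counts in that library, was at least 13777-fold higher with LPS against a floor of 3 counts there, and Nos2 at least 5838-fold. Shisa3, an adaptor of the endoplasmic reticulum, had 0, 1.20 and 1.60 CPM in the control libraries and 180.5, 177 and 152 CPM in the LPS libraries, at least 2011-fold above that library. Edn1, the endothelin precursor, was at least 1865-fold higher, and Gfi1 at least 694-fold. Tnfsf15, with 3 counts in that library, had a ratio of 5589 with an exact 95% counting interval of 1912 to 27100. For Il23a, with 1 count, the ratio was 6154 (1104 to 243052). These intervals cover counting error only.

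Among the falls, Npas4, an activity-dependent transcription factor, was the largest. It had 17.1, 15.2 and 27.6 CPM in control and 0 counts in all LPS libraries, at least 580.5-fold lower. Themis2, a macrophage relative of the T cell signalling protein Themis, had 196, 190.4 and 183 CPM in control and 0.923, 0.944 and 0.990 CPM with LPS (log2 fold change -7.64, SE 0.12, adjusted p = 3.80e-20). Abcd2, a peroxisomal transporter of fatty acyl groups, had 83.1, 74.3 and 74.2 CPM in control against 0.363, 0.175 and 0.530 CPM with LPS (log2 fold change -7.75, SE 0.16, adjusted p = 2.37e-20). Slco2b1, an organic anion transporter, had 54.01, 52.8 and 40.6 CPM in the control libraries and 0.330, 0.140 and 0.389 CPM in the LPS libraries (log2 fold change -7.40, SE 0.22, adjusted p = 1.83e-15). Lyl1, a helix-loop-helix factor of blood cells, had 95.96, 94.9 and 96.1 CPM in control and 0.725, 0.735 and 0.530 CPM with LPS (log2 fold change -7.16, SE 0.11, adjusted p = 3.37e-22). Fut7, the fucosyltransferase that completes selectin ligands, had 10.2, 9.50 and 9.99 CPM in control against 0.0660, 0.0350 and 0.0707 CPM with LPS (log2 fold change -7.33, SE 0.30, adjusted p = 3.59e-15). The falls were chosen by the same rule, so their lack of overlap is part of the choice. In each the LPS libraries were all under 1 CPM. The uncharacterised gene 9930111J21Rik1 also fell (log2 fold change -7.36, SE 0.42), but 88.3% of its 31-base words occur in other annotated transcripts, so its counts are uncertain.

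Levels per kilobase of annotated exon (RPKM) allow genes to be ranked within a group. In control the most abundant genes were Lyz2, Apoe, Psap and Ctsd, which encode lysozyme, apolipoprotein E and 2 lysosomal proteins. With LPS, Lyz2 went from 11075 to 3846 RPKM and Apoe from 7757 to 3813, and still held the first places. Fth1, the ferritin heavy chain, was not called, with 12514, 13198 and 12245 CPM in the control libraries and 12621, 12282 and 12627 CPM in the LPS libraries (log2 fold change -0.02, SE 0.05, adjusted p = 0.772). Several of the next most abundant genes with LPS were far lower in control. The chemokine gene Ccl3 went from 27.8 to 2955 RPKM, Ccl5 from 18.7 to 2772, Cxcl2 from 13.8 to 2682 and Cxcl1 from 11.5 to 2623. Acod1, the enzyme that makes itaconate, went from 12.3 to 2155 RPKM, Sqstm1, an autophagy receptor, from 179 to 2951, and Hspa5, the main chaperone of the endoplasmic reticulum, from 197 to 1767.

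**Figure D3:**
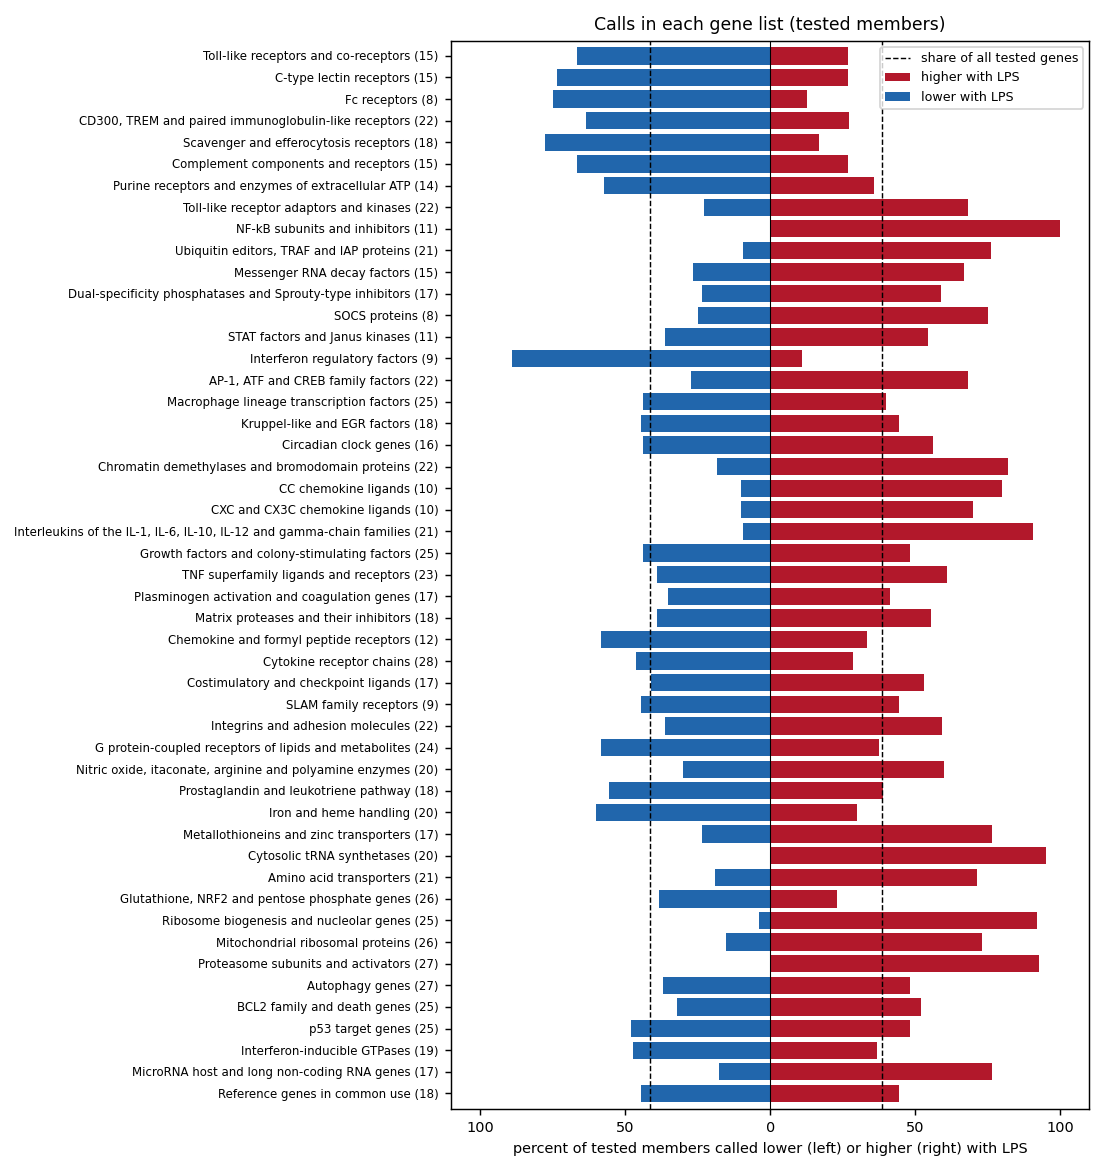
Percent of the tested members of each of 49 gene lists that were called higher (red, to the right) or lower (blue, to the left) with LPS, with the number of tested members in brackets. The dashed lines give the shares of all 14026 tested genes, 38.4% higher and 41.4% lower, and the NF-kB, tRNA synthetase, ribosome biogenesis, proteasome and interleukin lists reach furthest to the right.

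The receptor complex for LPS itself changed in parts that moved in opposite directions. Tlr4 had 169, 169 and 168 CPM in control and 24.1, 29.4 and 28.04 CPM with LPS (log2 fold change -2.63, SE 0.06, adjusted p = 3.42e-19). Its carrier Cd14 had 506, 551 and 532 CPM in control against 1712, 1691 and 1550 CPM with LPS (log2 fold change 1.64, SE 0.05, adjusted p = 7.62e-17). Its partner Ly96 had 12.4, 11.8 and 12.001 CPM in the control libraries and 24.1, 27.5 and 24.7 CPM in the LPS libraries (log2 fold change 1.08, SE 0.08, adjusted p = 1.58e-10). Every LPS library lay below every control library for Tlr4 and above it for both partners. Of the 15 tested Toll-like receptors and co-receptors, 4 were called higher and 10 lower, with a median log2 fold change of -1.24 against -0.06 for all genes. Counts and medians of the other lists below are read against the same shares, 38.4% higher and 41.4% lower, and the same median. Statements below that groups did not overlap are read against the 82.7% of all tested genes without overlap. For genes named by the size of a called change, such a gap is mostly part of the choice. The rises were the lipopeptide receptors Tlr2, with 56.9, 67.3 and 61.2 CPM in control and 531, 526 and 547 CPM with LPS, and Tlr1 (log2 fold change 2.34, SE 0.06), besides Cd14 and Ly96. Tlr6, the other partner of Tlr2, was not called, with 37.4, 35.1 and 36.1 CPM in control against 35.5, 40.4 and 39.3 CPM with LPS (log2 fold change 0.09, SE 0.06, adjusted p = 0.217). The falls took in the nucleic acid sensors Tlr9 (log2 fold change -3.38, SE 0.13), Tlr13 (log2 fold change -2.82, SE 0.05), Tlr8 (log2 fold change -1.86, SE 0.05), Tlr3 (log2 fold change -1.49, SE 0.11) and Tlr7 (log2 fold change -0.74, SE 0.05), and Unc93b1, which carries these receptors to endosomes (log2 fold change -1.24, SE 0.05). Tlr7 changed least of them, at 119 to 130 CPM with LPS against 201 to 212 CPM.

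Receptors that bind antibody, sugars, lipids and debris fell more often than they rose. Of 8 tested Fc receptor genes, 6 were called lower and 1 higher (median -2.71). Fcgr1, the high-affinity receptor for immunoglobulin G, had 167, 172 and 142 CPM in the control libraries and 1.71, 2.10 and 1.52 CPM in the LPS libraries (log2 fold change -6.49, SE 0.10, adjusted p = 1.88e-21). Fcgr3, a low-affinity receptor of the same antibody class, had 415, 433 and 404 CPM in control and 25.9, 27.7 and 31.01 CPM with LPS (log2 fold change -3.89, SE 0.07). Fcgrt, the neonatal Fc receptor that recycles immunoglobulin G, had 416, 430.4 and 360.3 CPM in control against 52.6, 52.05 and 44.4 CPM with LPS (log2 fold change -3.02, SE 0.09). For all 3 of these receptors the LPS libraries were at a small share of the control libraries, with no overlap. The inhibitory receptor Fcgr2b fell slightly (log2 fold change -0.23, SE 0.06). The shared signalling chain Fcer1g rose slightly (log2 fold change 0.18, SE 0.04), a direction that turned to -0.10 with library totals.

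Among 15 C-type lectin receptors, 4 were called higher and 11 lower (median -0.64). Clec4e (Mincle), a receptor of mycobacterial glycolipid and of dying cells, had 18.3, 41.6 and 42.3 CPM in the control libraries and 3539, 3571 and 3791 CPM in the LPS libraries (log2 fold change 6.74, SE 0.36, adjusted p = 2.11e-06, or 7.64 against control replicate 1 alone). The fungal receptors Clec4n (Dectin-2), with 62.03, 65.3 and 47.7 CPM in control and 4.68, 4.44 and 2.33 CPM with LPS (log2 fold change -3.93, SE 0.24), and Clec7a (Dectin-1), with 343, 358 and 338 CPM in control against 108, 109 and 113 CPM with LPS (log2 fold change -1.66, SE 0.10), fell. The groups did not overlap for any of the 3. Clec4d, whose product pairs with that of Clec4e, rose (log2 fold change 0.43, SE 0.06), and so did Clec5a (log2 fold change 2.20, SE 0.08). Cd302 was called higher (log2 fold change 0.17, SE 0.06), and stood at -0.10 with library totals.

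CD300, TREM and related paired receptors were called higher in 6 and lower in 14 of 22 cases (median log2 fold change -1.41). Cd300lb, which couples to an activating adaptor, had 454, 446 and 477 CPM in the control libraries and 3.17, 2.83 and 3.92 CPM in the LPS libraries (log2 fold change -7.12, SE 0.08, adjusted p = 1.35e-23). Cd300a, an inhibitory receptor for phospholipids, had 504, 528 and 488 CPM in control and 36.2, 32.2 and 31.2 CPM with LPS (log2 fold change -3.93, SE 0.06). Siglec1, the sialic acid receptor of resident macrophages, had 131, 150.4 and 131 CPM in control against 13.3, 12.7 and 10.3 CPM with LPS (log2 fold change -3.50, SE 0.09). In each of these 3 the LPS libraries lay close together and far below the control libraries. Trem2, a lipid receptor, fell by a smaller step (log2 fold change -1.48, SE 0.07), as did its adaptor Tyrobp (log2 fold change -1.59, SE 0.06). The rises were led by Lilr4b (log2 fold change 1.75, SE 0.06) and Lilrb4a (log2 fold change 1.67, SE 0.05). These 2 share 37.2% and 55.7% of their words with other transcripts, so counts between such copies are uncertain.

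Scavenger and efferocytosis genes, which take up modified lipoproteins and dead cells, were called lower in 14 of 18 cases and higher in 3 (median -0.81). Gas6, which bridges dead cells to the receptors Mertk and Axl, had 425, 448 and 394 CPM in the control libraries and 30.3, 29.8 and 27.2 CPM in the LPS libraries (log2 fold change -3.86, SE 0.06, adjusted p = 4.22e-22). Mertk (log2 fold change -0.61, SE 0.14) and Axl (log2 fold change -0.54, SE 0.08) fell by smaller steps. Stab1, a scavenger of hyaluronan and lipoprotein, had 982, 931 and 859 CPM in control and 79.3, 75.9 and 62.7 CPM with LPS (log2 fold change -3.67, SE 0.09). Cd93, a receptor in the uptake of dead cells, had 713, 702 and 693 CPM in control against 74.8, 69.6 and 63.1 CPM with LPS (log2 fold change -3.34, SE 0.07). Both fell in every LPS library. Olr1, the receptor for oxidised low-density lipoprotein, went the other way, with 0.0563, 0.161 and 0.359 CPM in the control libraries and 29.5, 27.98 and 32.95 CPM in the LPS libraries (log2 fold change 7.26, SE 0.33, adjusted p = 3.07e-08, with a ratio to control replicate 1 of 536, interval 148 to 4422).

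For complement, 4 of 15 genes were called higher and 10 lower (median -1.19). C3, the central component, rose (84.3 ± 9.88 CPM in control and 550.5 ± 52.9 with LPS; log2 fold change 2.71, SE 0.11), and the receptor for its fragment C3a, C3ar1, fell (1050 ± 17.4 CPM in control and 73.98 ± 7.57 with LPS; log2 fold change -3.83, SE 0.07; SD, n = 3 throughout). The 3 chains of C1q fell together, by log2 fold changes of -2.20, -1.92 and -2.29. Purine receptors and enzymes of extracellular ATP were called higher in 5 and lower in 8 of 14 cases (median -1.32). Adora2a, the receptor through which adenosine restrains macrophages, had 0.957, 2.22 and 2.46 CPM in control and 187, 185 and 187 CPM with LPS (log2 fold change 6.62, SE 0.15, adjusted p = 9.83e-12, or 7.60 against control replicate 1 alone). The UDP receptor P2ry6 had 189, 194 and 179 CPM in control against 16.9, 15.1 and 13.97 CPM with LPS (log2 fold change -3.61, SE 0.07). The ATP-hydrolysing enzyme Entpd1 (CD39) had 266, 267 and 246 CPM in the control libraries and 21.9, 23.05 and 21.8 CPM in the LPS libraries (log2 fold change -3.55, SE 0.07). For both, the highest LPS library was far below the lowest control library. The ATP-gated channels P2rx7 (log2 fold change -2.92, SE 0.06) and P2rx4 (log2 fold change -2.00, SE 0.05) fell as well.

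**Figure D4:**
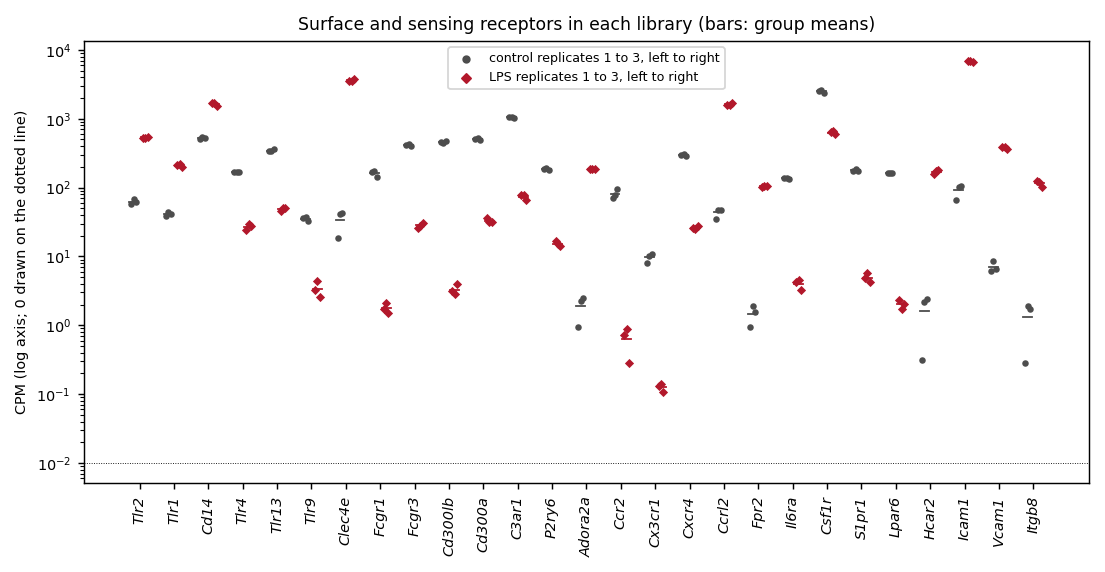
CPM of receptor genes in each of the 6 libraries on a log axis, with control replicates as grey circles, LPS replicates as red diamonds and bars at the group means. Tlr4, Fcgr1, Cd300lb, Ccr2, Il6ra and Lpar6 lie lower with LPS in all 3 libraries, and Clec4e, Adora2a, Ccrl2, Hcar2 and Icam1 lie higher.

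Adaptors and kinases below these receptors were called higher in 15 of 22 cases and lower in 5 (median 0.88). Ripk2, the kinase of the NOD receptors, changed most, with 13.2, 12.9 and 12.99 CPM in control and 369, 372 and 362 CPM with LPS (log2 fold change 4.82, SE 0.07, adjusted p = 1.36e-22). The adaptor Ticam1 had 21.8, 22.7 and 23.04 CPM in control against 139, 134 and 136 CPM with LPS (log2 fold change 2.60, SE 0.05). Myd88 had 56.9, 58.97 and 59.9 CPM in the control libraries and 110.1, 108 and 95.7 CPM in the LPS libraries (log2 fold change 0.84, SE 0.06). All 3 rose without overlap of the groups, which 82.7% of all tested genes also lacked in one direction or the other. Irak2 (log2 fold change 2.10, SE 0.05) and the inhibitory Irak3 (log2 fold change 2.11, SE 0.05) rose, whereas Irak4, the first kinase recruited by Myd88, fell (log2 fold change -1.44, SE 0.06), as did Irak1 (log2 fold change -0.65, SE 0.05). Ikbkb, the catalytic subunit of the I kappa B kinase, was not called, with 108, 104.0 and 103 CPM in control and 103, 107 and 107 CPM with LPS (adjusted p = 0.918).

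All 11 tested NF-kB subunits and inhibitors were called higher, with a median log2 fold change of 3.32. The precursor subunit gene Nfkb2 had 78.5, 85.2 and 80.9 CPM in control against 1489, 1489 and 1440 CPM with LPS (log2 fold change 4.17, SE 0.05, adjusted p = 4.86e-23). Its relative Nfkb1 had 129, 138 and 139 CPM in the control libraries and 1358, 1356 and 1354 CPM in the LPS libraries (log2 fold change 3.32, SE 0.05). The atypical inhibitor Nfkbiz, which acts in the nucleus as a coactivator, had 11.7, 23.98 and 23.5 CPM in control and 1286, 1274 and 1203 CPM with LPS (log2 fold change 5.99, SE 0.27, adjusted p = 8.49e-07, or 6.74 against control replicate 1 alone). Nfkbib, a cytoplasmic inhibitor, had 20.8, 23.6 and 23.7 CPM in control against 389, 390.1 and 372 CPM with LPS (log2 fold change 4.08, SE 0.07). The groups did not overlap for any of these genes, and Nfkbid changed least (log2 fold change 0.42, SE 0.08), a rise that was not called with library totals.

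Among ubiquitin editors, TRAF and IAP proteins, which shape NF-kB and death signals, 16 of 21 were called higher and 2 lower (median 1.08). The adaptor Traf1 had 8.14, 13.3 and 12.7 CPM in the control libraries and 668, 690.1 and 691 CPM in the LPS libraries (log2 fold change 5.91, SE 0.15, adjusted p = 8.65e-10). Tnfaip3 (A20) had 53.4, 62.3 and 68.7 CPM in control and 1865, 1917 and 1840 CPM with LPS (log2 fold change 4.93, SE 0.08). The ligase Peli1 had 37.2, 40.7 and 42.02 CPM in control against 769, 781 and 755 CPM with LPS (log2 fold change 4.26, SE 0.05). The control libraries lay within a narrow band for each of the 3 and the LPS libraries far above it. The fall of Tnip2, a partner of A20, was small (log2 fold change -0.24, SE 0.07) and was not called without LPS replicate 3. Of the linear ubiquitin assembly genes, Rnf31 rose (log2 fold change 0.33, SE 0.06, not called with library totals), Rbck1 fell (log2 fold change -0.79, SE 0.06) and Sharpin was not called (log2 fold change -0.07, SE 0.07).

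Factors that destroy inflammatory messenger RNAs moved in both directions, with 10 of 15 called higher and 4 lower (median log2 fold change 0.68). The endonuclease gene Zc3h12c had 20.3, 23.2 and 28.6 CPM in the control libraries and 573, 574 and 563 CPM in the LPS libraries (log2 fold change 4.57, SE 0.10, adjusted p = 1.26e-12). Its relative Zc3h12a (Regnase-1) had 20.7, 22.6 and 27.3 CPM in control and 176, 184 and 176 CPM with LPS (log2 fold change 2.92, SE 0.08). Both rose to several times the control level in every library. The tristetraprolin family binds AU-rich elements in messenger RNAs. All 3 members given here fell. Zfp36l1 had 262, 263 and 249 CPM in control against 6.96, 6.05 and 6.44 CPM with LPS (log2 fold change -5.31, SE 0.09, adjusted p = 4.05e-18). Zfp36l2 had 593, 549.7 and 586 CPM in the control libraries and 123, 121 and 117 CPM in the LPS libraries (log2 fold change -2.26, SE 0.05) and Zfp36 itself fell less (log2 fold change -0.94, SE 0.06).

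Inhibitors of MAP kinases and cytokine signals were called higher in 10 of 17 cases (dual-specificity phosphatases and Sprouty-type proteins, 4 lower, median 0.87) and in 6 of 8 cases (SOCS proteins, 2 lower, median 1.11). Spry1, an inhibitor of receptor tyrosine kinases, had 0.0563, 0.0803 and 0.0276 CPM in control and 6.20, 5.81 and 6.05 CPM with LPS (log2 fold change 6.67, SE 0.32). Dusp2, a nuclear phosphatase of MAP kinases, had 2.45, 2.86 and 3.23 CPM in control against 52.6, 54.9 and 48.3 CPM with LPS (log2 fold change 4.19, SE 0.10). Dusp16, a phosphatase of the JNK kinases, had 5.29, 5.89 and 7.78 CPM in the control libraries and 68.9, 66.98 and 71.2 CPM in the LPS libraries (log2 fold change 3.45, SE 0.09). These 3 rose in every LPS library. Dusp6, a phosphatase of ERK, fell (48.7, 46.8 and 54.1 CPM in control and 4.62, 4.30 and 4.99 CPM with LPS; log2 fold change -3.43, SE 0.09). Socs3, the inhibitor of gp130 receptors, had 2.25, 4.15 and 5.71 CPM in control against 233, 248 and 221 CPM with LPS (log2 fold change 5.85, SE 0.22, adjusted p = 1.46e-07, or 6.70 against control replicate 1 alone). Cish, an inhibitor of Stat5 signals, had 0.197, 0.161 and 0.248 CPM in the control libraries and 15.8, 12.6 and 10.996 CPM in the LPS libraries (log2 fold change 6.00, SE 0.22).

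The kinases and factors that read cytokines did not move as one. The receptor-bound kinase Jak2 had 50.7, 56.1 and 59.6 CPM in control and 765, 766 and 716 CPM with LPS (log2 fold change 3.76, SE 0.06, adjusted p = 1.25e-20). Stat5a, one of its substrates, had 38.5, 39.3 and 38.1 CPM in control against 636, 653 and 639 CPM with LPS (log2 fold change 4.05, SE 0.05, adjusted p = 3.75e-23). Both rose without overlap. Jak3, a kinase of receptors with the common gamma chain, fell, with 51.1, 45.1 and 42.2 CPM in the control libraries and 17.05, 16.1 and 14.5 CPM in the LPS libraries (log2 fold change -1.54, SE 0.09, adjusted p = 1.01e-12), and Stat2 rose (log2 fold change 1.48, SE 0.05). Of 9 interferon regulatory factors and related genes, 1 was called higher and 8 lower (median -1.06). The rise was that of Irf1, with 60.2, 68.3 and 62.1 CPM in control and 1052, 1065 and 1075 CPM with LPS (log2 fold change 4.07, SE 0.05, adjusted p = 9.15e-23), and the other factors were lower. The falls were led by Irf2bp2, a repressor that binds Irf2 (336 ± 2.97 CPM in control and 39.5 ± 1.23 with LPS; log2 fold change -3.09, SE 0.05), and Irf7, a driver of type I interferon genes (103 ± 20.6 CPM in control and 17.3 ± 1.07 with LPS; log2 fold change -2.58, SE 0.18), with Irf9 (log2 fold change -1.62, SE 0.08) and Irf8 (log2 fold change -1.54, SE 0.05) after them. Irf3 (log2 fold change -0.16, SE 0.07, adjusted p = 0.0430) and Irf4 (log2 fold change -0.35, SE 0.16, adjusted p = 0.0474) passed the threshold narrowly and did not pass it with DESeq2.

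Transcription factors of the macrophage lineage moved both ways. Of the 25 in the list 10 were called higher and 11 lower, shares close to those of all genes (median -0.23). Maf, a leucine zipper factor of differentiated macrophages, had 363, 344 and 304 CPM in control against 16.9, 15.8 and 14.2 CPM with LPS (log2 fold change -4.43, SE 0.08, adjusted p = 1.70e-17). Cebpa, a factor of myeloid development, had 309, 279 and 286 CPM in the control libraries and 17.7, 18.1 and 21.9 CPM in the LPS libraries (log2 fold change -3.92, SE 0.07). The lipid-sensing nuclear receptor Pparg had 42.6, 41.1 and 44.9 CPM in control and 2.87, 3.01 and 4.53 CPM with LPS (log2 fold change -3.63, SE 0.12). All 3 were lower in every LPS library than in any control library. The myeloid master factor Spi1 (PU.1) rose instead, with 384, 398 and 374 CPM in control against 771, 765 and 713 CPM with LPS (log2 fold change 0.96, SE 0.05). Tfec, a relative of Mitf, had 10.95, 12.96 and 11.8 CPM in the control libraries and 230.1, 227 and 231 CPM in the LPS libraries (log2 fold change 4.27, SE 0.08, adjusted p = 1.19e-19), while its relatives Tfeb (log2 fold change -1.77, SE 0.06) and Tfe3 (log2 fold change -1.04, SE 0.05), regulators of lysosomal genes, fell.

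AP-1, ATF and CREB family factors were called higher in 15 of 22 cases and lower in 6 (median 0.58). Maff, a small Maf protein that binds DNA with NRF2 and other partners, had 1.72, 2.62 and 2.65 CPM in control and 144, 152 and 166 CPM with LPS (log2 fold change 6.04, SE 0.10, adjusted p = 1.83e-20). The Jun-binding repressor Jdp2 had 6.25, 9.37 and 7.95 CPM in control against 199, 209 and 177 CPM with LPS (log2 fold change 4.63, SE 0.11). Batf, which also pairs with Jun proteins, had 4.48, 4.98 and 5.16 CPM in the control libraries and 76.4, 80.1 and 72.5 CPM in the LPS libraries (log2 fold change 3.97, SE 0.08). Atf4, the factor that raises amino acid synthesis and transport genes under stress, had 73.8, 81.001 and 88.2 CPM in control and 989.8, 995 and 999 CPM with LPS (log2 fold change 3.62, SE 0.07). These 4 rose without overlap of the groups. Fos went far down, with 154, 154 and 149 CPM in control against 1.48, 1.19 and 1.06 CPM with LPS (log2 fold change -6.93, SE 0.11, adjusted p = 3.39e-21). Batf3 had 3.83, 3.37 and 4.63 CPM in the control libraries and 0.0989, 0.0700 and 0.141 CPM in the LPS libraries (log2 fold change -5.20, SE 0.59). Junb rose (log2 fold change 1.64, SE 0.04) while Jun (log2 fold change -1.23, SE 0.06) and Fosl2 (log2 fold change -2.34, SE 0.08) fell. Kruppel-like and EGR factors divided equally, with 8 higher and 8 lower of 18 (median 0.12). Klf5 had 0.0282, 0.161 and 0.221 CPM in control and 13.2, 13.4 and 13.2 CPM with LPS (log2 fold change 6.55, SE 0.26, with a ratio to control replicate 1 of 471, interval 84.5 to 18597). Klf7 had 19.4, 20.02 and 26.3 CPM in control against 188, 191 and 183 CPM with LPS (log2 fold change 3.10, SE 0.09). The early growth response factors Egr1 (log2 fold change -3.35, SE 0.31) and Egr2 (log2 fold change -2.61, SE 0.24) and the vascular regulator Klf2 (log2 fold change -2.27, SE 0.14) fell.

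Circadian clock genes changed without exception among the 16 tested, with 9 higher and 7 lower (median 0.55). The activators Arntl (log2 fold change 1.34, SE 0.09) and Clock (log2 fold change 1.26, SE 0.05) rose, and so did the repressors Cry1 (log2 fold change 2.79, SE 0.10) and Cry2 (log2 fold change 1.52, SE 0.09) and the D-box repressor Nfil3 (log2 fold change 2.11, SE 0.06). The D-box activator Dbp had 25.3, 25.4 and 22.6 CPM in the control libraries and 0.989, 1.40 and 0.601 CPM in the LPS libraries (log2 fold change -4.61, SE 0.18, adjusted p = 1.01e-15), and Tef (log2 fold change -1.76, SE 0.06), Nr1d1 (log2 fold change -2.67, SE 0.24), Per1 (log2 fold change -1.15, SE 0.09), Per2 (log2 fold change -1.34, SE 0.17) and Per3 (log2 fold change -2.54, SE 0.26) fell. Sampling times are not in the labels, so treatment and time of day cannot be told apart. Chromatin demethylases and bromodomain proteins were called higher in 18 of 22 cases and lower in 4 (median 0.53). With library totals 13 were called higher and 4 lower. Kdm6b, which removes a repressive methyl mark from histone H3, had 29.6, 29.3 and 26.6 CPM in control and 171, 190 and 192 CPM with LPS (log2 fold change 2.69, SE 0.06). Kdm4a, another histone demethylase, had 76.3, 80.5 and 80.8 CPM in control against 458, 462 and 442 CPM with LPS (log2 fold change 2.52, SE 0.05). The methylcytosine oxidase Tet3 fell (244 ± 17.2 CPM in control and 56.4 ± 1.36 with LPS; log2 fold change -2.11, SE 0.05) while Tet2 rose (log2 fold change 1.03, SE 0.06).

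Chemokines that draw neutrophils and monocytes were among the most abundant LPS transcripts. The promoters of the neutrophil chemokines Cxcl1 and Cxcl2 and of Il6 are shown because their kappa B motifs, the sites that NF-kB factors bind, lie close to the start. They are the 300 bases from 250 before to 50 after the start in RefSeq (GRCm38.p6, plus strand) at chr5:90890995-90891294 for Cxcl1, chr5:90903649-90903948 for Cxcl2 and chr5:30012864-30013163 for Il6, with matches to GGG, any 2 bases, TT, any base and CC on either strand in capitals.
Cxcl1: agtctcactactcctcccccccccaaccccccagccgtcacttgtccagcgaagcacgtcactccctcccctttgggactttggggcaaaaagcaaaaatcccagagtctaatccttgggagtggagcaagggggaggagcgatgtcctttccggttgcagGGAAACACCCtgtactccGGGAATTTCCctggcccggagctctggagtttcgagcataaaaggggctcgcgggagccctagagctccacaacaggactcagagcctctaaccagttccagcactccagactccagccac
Cxcl2: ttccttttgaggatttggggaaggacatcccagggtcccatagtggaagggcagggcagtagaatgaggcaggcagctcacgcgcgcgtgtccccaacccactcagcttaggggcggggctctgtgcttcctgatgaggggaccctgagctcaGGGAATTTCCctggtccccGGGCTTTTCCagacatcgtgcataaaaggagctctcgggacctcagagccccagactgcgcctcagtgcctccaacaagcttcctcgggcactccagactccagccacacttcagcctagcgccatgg
Il6: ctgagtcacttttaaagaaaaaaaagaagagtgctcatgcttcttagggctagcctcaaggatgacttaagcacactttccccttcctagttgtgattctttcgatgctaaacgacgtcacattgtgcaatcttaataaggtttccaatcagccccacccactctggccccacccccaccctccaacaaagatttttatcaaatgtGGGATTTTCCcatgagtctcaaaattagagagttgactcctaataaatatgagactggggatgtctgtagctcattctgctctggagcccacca
Cxcl1 and Cxcl2 hold 2 matches each and Il6 holds 1. A match is a run of letters, not proof of binding.

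Cxcl1 had 1.10, 29.6 and 33.96 CPM in the control libraries and 4901, 4919 and 4937 CPM in the LPS libraries (log2 fold change 7.83, SE 0.99, adjusted p = 2.95e-04, or 12.13 against control replicate 1 alone). Cxcl2 had 3.41, 37.9 and 44.1 CPM in control and 5614, 5376 and 5648 CPM with LPS (log2 fold change 7.60, SE 0.88, adjusted p = 1.82e-04, or 10.67 against control replicate 1 alone). For both, every LPS library was above every control library, and the control libraries spread widely. Ccl5, a T cell attractant, had 2.08, 24.9 and 26.8 CPM in control against 2702, 2660 and 2619 CPM with LPS (log2 fold change 7.21, SE 0.79, adjusted p = 1.36e-04, or 10.32 against control replicate 1 alone). Ccl3, which binds Ccr1, had 12.3, 25.7 and 25.9 CPM in the control libraries and 2243, 2248 and 2300 CPM in the LPS libraries (log2 fold change 6.73, SE 0.30, or 7.53 against control replicate 1 alone). Its neighbour Ccl4 had 11.1, 16.7 and 16.2 CPM in control and 1036, 1055 and 1060 CPM with LPS (log2 fold change 6.16, SE 0.14). The monocyte attractant Ccl2 had 3.18, 4.79 and 6.98 CPM in control against 144, 154 and 146 CPM with LPS (log2 fold change 4.89, SE 0.19, or 5.54 against control replicate 1 alone). The rises of Ccl3, Ccl4 and Ccl2 were as clear, though control replicate 1 was the lowest control library for each. Ccl22, which draws regulatory T cells, had 0.563, 0.990 and 0.331 CPM in the control libraries and 91.7, 102 and 87.7 CPM in the LPS libraries (log2 fold change 7.21, SE 0.17, adjusted p = 1.36e-14).

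Of the CC chemokine ligands, 8 of 10 tested were called higher and 1 lower (median 5.37). Of the CXC and CX3C ligands 7 of 10 were called higher and 1 lower (median 2.35). The falls were Ccl6 (391 ± 30.5 CPM in control and 101 ± 13.2 with LPS; log2 fold change -1.96, SE 0.09) and Cxcl14 (33.5 ± 2.31 CPM in control and 8.78 ± 1.05 with LPS; log2 fold change -1.93, SE 0.09). Cxcl10, a chemokine that interferon induces, stayed low, with 1.27, 0.803 and 0.552 CPM in control and 2.90, 3.36 and 3.89 CPM with LPS (log2 fold change 1.95, SE 0.26). Cxcl9 had 24 counts and Cxcl11 27 counts over all 9 libraries, too few to test. Cxcl3 varied among the LPS libraries, with 0.0563, 0.107 and 0.0552 CPM in control against 9.93, 17.2 and 27.5 CPM with LPS (log2 fold change 7.88, SE 0.74, adjusted p = 4.23e-05).

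**Figure D5:**
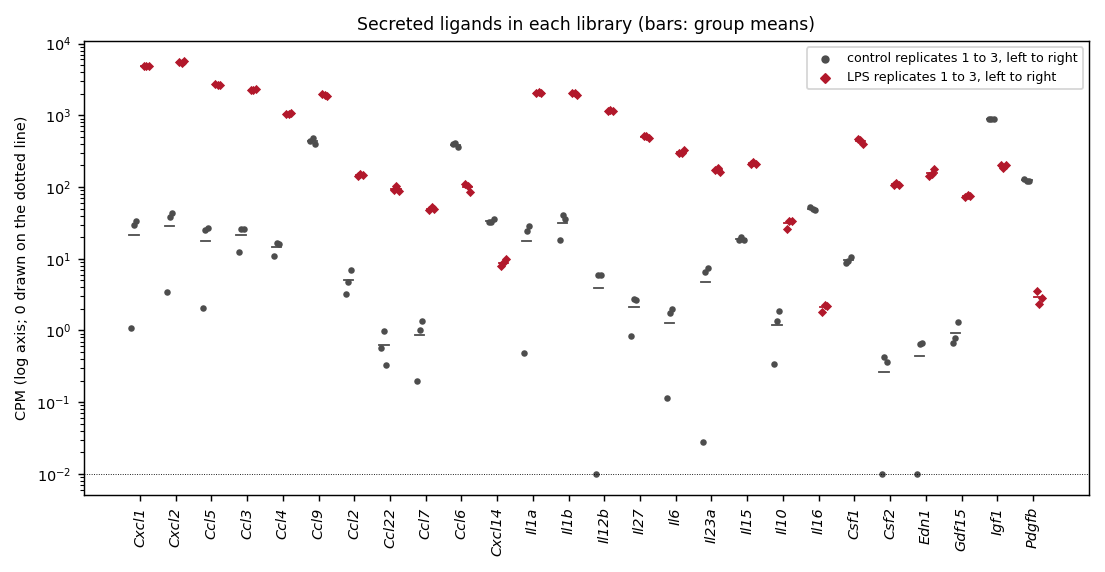
CPM of secreted ligands in each of the 6 libraries on a log axis, with control replicates as grey circles, LPS replicates as red diamonds and bars at the group means. Control replicate 1 lies under control replicates 2 and 3 for Cxcl1, Ccl5, Il1a, Il12b, Il6 and Il23a, and Ccl6, Cxcl14, Il16, Igf1 and Pdgfb are lower with LPS.

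Interleukin genes were called higher in 19 of 21 cases, with a median log2 fold change of 3.41. Il6 had 0.113, 1.74 and 2.01 CPM in the control libraries and 298, 303 and 333 CPM in the LPS libraries (log2 fold change 7.90, SE 0.35, adjusted p = 7.19e-07, or 11.38 against control replicate 1 alone). Il27, a subunit of interleukin 27, had 0.845, 2.78 and 2.65 CPM in control and 513, 512 and 483 CPM with LPS (log2 fold change 7.90, SE 0.23, adjusted p = 2.29e-08, or 9.22 against control replicate 1 alone). Il12a had 0, 0.0803 and 0.441 CPM in control against 78.5, 82.4 and 87.5 CPM with LPS (log2 fold change 8.86, SE 0.27, and at least 980-fold above control replicate 1). Its partner Il12b, which also pairs with Il23a, had 0, 5.97 and 5.88 CPM in the control libraries and 1166, 1191 and 1134 CPM in the LPS libraries (log2 fold change 8.19, SE 0.65, and at least 13777-fold above control replicate 1). Il23a had 0.0282, 6.61 and 7.39 CPM in control and 172, 184 and 163 CPM with LPS (log2 fold change 5.20, SE 0.60, with a ratio to control replicate 1 of 6154, interval 1104 to 243052). For Il12a, Il12b and Il23a control replicate 1 stood below the other 2 control libraries. Il15, a growth factor of natural killer cells, had 18.2, 20.1 and 18.3 CPM in control against 209, 222 and 210 CPM with LPS (log2 fold change 3.50, SE 0.06, adjusted p = 1.65e-21). The anti-inflammatory Il10 had 0.338, 1.34 and 1.85 CPM in the control libraries and 25.9, 33.8 and 33.9 CPM in the LPS libraries (log2 fold change 4.71, SE 0.38, or 6.51 against control replicate 1 alone). The receptor antagonist Il1rn had 35.3, 40.6 and 43.2 CPM in control and 394, 437 and 416 CPM with LPS (log2 fold change 3.39, SE 0.08). Il16, a CD4 ligand, fell, with 51.98, 49.1 and 48.03 CPM in control against 1.78, 2.27 and 2.23 CPM with LPS (log2 fold change -4.57, SE 0.13, adjusted p = 4.43e-18), and so did Il18bp, which neutralises interleukin 18 (log2 fold change -1.34, SE 0.14).

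Growth factors split almost evenly, with 12 higher and 11 lower of 25 (median 1.59). The colony-stimulating factor genes rose. Csf1, the growth factor of macrophages themselves, had 8.84, 9.40 and 10.7 CPM in the control libraries and 471, 453 and 399 CPM in the LPS libraries (log2 fold change 5.51, SE 0.15, adjusted p = 2.03e-09). Csf2 (GM-CSF) had 0, 0.428 and 0.359 CPM in control and 108, 113 and 108 CPM with LPS (log2 fold change 8.67, SE 0.48, and at least 1296-fold above control replicate 1). Edn1, the precursor of a vasoconstrictor peptide, had 0, 0.642 and 0.662 CPM in control against 143, 152 and 178 CPM with LPS (log2 fold change 8.47, SE 0.31, and at least 1865-fold above control replicate 1). Gdf15, a stress cytokine that reduces food intake, had 0.676, 0.776 and 1.32 CPM in the control libraries and 73.3, 78.4 and 73.8 CPM in the LPS libraries (log2 fold change 6.34, SE 0.14, adjusted p = 2.06e-17). Inhbb, an activin subunit, had 0.197, 0 and 0.0828 CPM in control and 9.56, 7.59 and 6.05 CPM with LPS (log2 fold change 6.34, SE 0.49, or 5.27 against control replicate 1 alone). In each of these the LPS libraries lay far above every control library. Other factors fell. The platelet-derived growth factor gene Pdgfb had 129, 122 and 121 CPM in control against 3.50, 2.31 and 2.86 CPM with LPS (log2 fold change -5.42, SE 0.15, adjusted p = 2.32e-11). Its relative Pdgfc had 7.55, 8.49 and 7.09 CPM in the control libraries and 0.692, 0.490 and 0.212 CPM in the LPS libraries (log2 fold change -4.03, SE 0.29). Bmp2, a bone morphogenetic protein, had 17.8, 16.8 and 13.6 CPM in control and 1.38, 1.68 and 0.955 CPM with LPS (log2 fold change -3.58, SE 0.19). The hepatocyte growth factor gene Hgf had 22.98, 19.03 and 22.7 CPM in control against 2.87, 2.55 and 3.82 CPM with LPS (log2 fold change -2.81, SE 0.16). Igf1, the insulin-like growth factor that macrophages release in repair, had 895, 898 and 887 CPM in the control libraries and 201, 183 and 200.2 CPM in the LPS libraries (log2 fold change -2.20, SE 0.08).

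In the TNF superfamily, 14 of 23 tested ligands and receptors were called higher and 9 lower (median 0.95). Cd40 had 0.873, 8.27 and 9.27 CPM in control and 1516, 1524 and 1475 CPM with LPS (log2 fold change 7.93, SE 0.57, adjusted p = 1.24e-05, or 10.75 against control replicate 1 alone). Tnfsf9, the 4-1BB ligand, had 0.310, 3.83 and 4.72 CPM in control against 497, 499 and 479.7 CPM with LPS (log2 fold change 7.37, SE 0.43, or 10.62 against control replicate 1 alone). Tnfsf15, the ligand TL1A, had 0.0845, 3.32 and 4.44 CPM in the control libraries and 443, 462 and 511 CPM in the LPS libraries (log2 fold change 7.48, SE 0.48, with a ratio to control replicate 1 of 5589, interval 1912 to 27100). Tnfsf4, the OX40 ligand, had 0.0282, 0 and 0.110 CPM in control and 10.8, 11.1 and 11.4 CPM with LPS (log2 fold change 7.80, SE 0.33, with a ratio to control replicate 1 of 393, interval 70.6 to 15534). For Tnfsf9 and Tnfsf15 the control libraries were spread as for Cd40, with replicate 1 lowest. Tnfrsf21, a death receptor, had 101, 103.9 and 98.8 CPM in control against 5.34, 6.89 and 5.13 CPM with LPS (log2 fold change -4.13, SE 0.09). Tnfrsf11a, the receptor that drives osteoclast formation, had 111, 109.9 and 115 CPM in the control libraries and 14.6, 16.5 and 14.2 CPM in the LPS libraries (log2 fold change -2.89, SE 0.10). The 2 receptors of tumour necrosis factor moved apart, with a rise of Tnfrsf1b (log2 fold change 1.90, SE 0.05) and a fall of Tnfrsf1a (log2 fold change -1.21, SE 0.05). Tnf, Lta and Ltb have 0 counts in all 9 libraries. They lie in a stretch of chromosome 17, 34 to 38 Mb in GRCm38, where 36 of 186 protein-coding genes could be tested (19.4%, against 55.4% of all protein-coding genes in the table), so their level cannot be read from these counts.

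Genes of plasminogen activation and clotting moved both ways, with 7 of 17 called higher and 6 lower, shares close to those of all genes (median 0.27). F10, coagulation factor X, had 31.3, 36.2 and 36.8 CPM in control and 746, 747 and 849 CPM with LPS (log2 fold change 4.49, SE 0.08, adjusted p = 5.35e-17). The urokinase receptor Plaur rose (log2 fold change 1.99, SE 0.06). Thrombomodulin (Thbd), an anticoagulant receptor, had 21.03, 19.6 and 21.5 CPM in control against 0.165, 0.315 and 0.566 CPM with LPS (log2 fold change -5.89, SE 0.21, adjusted p = 3.01e-16). Among matrix proteases and inhibitors 10 of 18 were called higher and 7 lower (median 0.85). The collagenase Mmp14 had 7.77, 12.8 and 14.4 CPM in the control libraries and 638, 681 and 632 CPM in the LPS libraries (log2 fold change 5.80, SE 0.20, adjusted p = 7.00e-08, or 6.39 against control replicate 1 alone). Another collagenase, Mmp13, had 13.5, 15.95 and 12.3 CPM in control and 467, 489 and 443 CPM with LPS (log2 fold change 5.06, SE 0.08). Adamts4, which cleaves aggrecan, had 0.141, 0.562 and 0.966 CPM in control against 64.2, 61.7 and 54.8 CPM with LPS (log2 fold change 6.74, SE 0.24, or 8.70 against control replicate 1 alone). All 3 proteases rose in every LPS library. Cst7, an inhibitor of cathepsins, had 0.901, 0.562 and 0.966 CPM in the control libraries and 40.96, 42.7 and 43.3 CPM in the LPS libraries (log2 fold change 5.71, SE 0.12), whereas Timp2 (668 ± 21.4 CPM in control and 127 ± 3.94 with LPS; log2 fold change -2.40, SE 0.04) and Adam8 (log2 fold change -1.64, SE 0.08) fell.

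Most chemokine receptors fell. Ccr2, the receptor of Ccl2, had 71.4, 78.4 and 94.2 CPM in control and 0.725, 0.874 and 0.283 CPM with LPS (log2 fold change -7.00, SE 0.32, adjusted p = 1.33e-07). The fractalkine receptor Cx3cr1 had 8.11, 10.1 and 11.01 CPM in control against 0.132, 0.140 and 0.106 CPM with LPS (log2 fold change -6.23, SE 0.30). Cxcr4, which holds cells in the marrow, had 301, 304 and 289 CPM in the control libraries and 25.7, 25.04 and 27.3 CPM in the LPS libraries (log2 fold change -3.52, SE 0.05). All 3 receptors fell without overlap of the groups. The rises were the formyl peptide receptors Fpr2, with 0.957, 1.93 and 1.54 CPM in control and 103, 106 and 103.8 CPM with LPS (log2 fold change 6.13, SE 0.12, or 6.76 against control replicate 1 alone), and Fpr1 (log2 fold change 5.64, SE 0.30, with a ratio to control replicate 1 of 109, interval 30.2 to 899.8), and Ccrl2, a receptor that presents chemerin without signalling, with 35.5, 47.8 and 47.8 CPM in control against 1571, 1596 and 1694 CPM with LPS (log2 fold change 5.21, SE 0.11, adjusted p = 1.38e-13). Over the list 4 of 12 were called higher and 7 lower (median log2 fold change -2.40).

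Cytokine receptor chains were called higher in 8 and lower in 13 of 28 cases (median -0.21). Il6ra, the receptor of interleukin 6, had 136, 138 and 135 CPM in the control libraries and 4.22, 4.62 and 3.25 CPM in the LPS libraries (log2 fold change -5.08, SE 0.08, adjusted p = 1.57e-21). Csf1r (log2 fold change -2.00, SE 0.05) and Csf3r (log2 fold change -2.57, SE 0.05) fell, while Csf2ra was not called (log2 fold change -0.10, SE 0.05). The chain Il15ra, which presents interleukin 15 to neighbouring cells, had 3.01, 3.75 and 3.20 CPM in control and 52.4, 60.8 and 52.4 CPM with LPS (log2 fold change 4.05, SE 0.10, adjusted p = 3.61e-19). Both interferon gamma receptor chains fell, Ifngr1 (log2 fold change -1.92) by more than Ifngr2 (log2 fold change -0.13), whose fall was not called with DESeq2.

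Ligands that instruct T cells were called higher in 9 of 17 cases and lower in 7 (median 0.37). Pvr, the poliovirus receptor homologue that binds CD226 and TIGIT, had 11.8, 15.8 and 14.5 CPM in control against 308, 318 and 286 CPM with LPS (log2 fold change 4.43, SE 0.08, adjusted p = 2.21e-18). Icosl, the ligand of ICOS, had 11.2, 12.9 and 12.2 CPM in the control libraries and 143, 140.2 and 125 CPM in the LPS libraries (log2 fold change 3.49, SE 0.07). Cd83, an activation marker, had 58.96, 63.8 and 62.6 CPM in control and 679, 673 and 678 CPM with LPS (log2 fold change 3.45, SE 0.05). The checkpoint ligand Cd274 (PD-L1) had 86.6, 96.5 and 84.6 CPM in control against 869, 907 and 949 CPM with LPS (log2 fold change 3.35, SE 0.06). Every LPS library was above every control library for these 4 genes. Cd200 rose (log2 fold change 3.01, SE 0.10) and its receptor Cd200r1 fell (log2 fold change -3.32, SE 0.12). In the SLAM family, Slamf1 had 0.113, 0.0268 and 0.0828 CPM in the control libraries and 9.07, 9.97 and 10.2 CPM in the LPS libraries (log2 fold change 6.98, SE 0.34, or 6.39 against control replicate 1 alone). Slamf7 had 36.3, 37.9 and 40.9 CPM in control and 602, 642 and 686 CPM with LPS (log2 fold change 4.07, SE 0.07). The adaptor Sh2d1b1 had 8.28, 8.22 and 8.36 CPM in control against 0.0330, 0.0350 and 0.141 CPM with LPS (log2 fold change -6.83, SE 0.39). That family had 4 higher and 4 lower of 9 tested (median -0.48).

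Adhesion molecules rose strongly in part. Icam1, the ligand of leukocyte integrins, had 66.2, 101 and 105.4 CPM in the control libraries and 6928, 6799 and 6711 CPM in the LPS libraries (log2 fold change 6.23, SE 0.20, adjusted p = 2.84e-08). The adhesion receptor Vcam1 had 6.14, 8.51 and 6.57 CPM in control and 388, 393 and 358 CPM with LPS (log2 fold change 5.74, SE 0.09). Itgb8, the integrin chain that activates transforming growth factor beta, had 0.282, 1.93 and 1.74 CPM in control against 125, 121 and 103 CPM with LPS (log2 fold change 6.45, SE 0.33, or 8.67 against control replicate 1 alone). Itgal, an integrin chain that binds Icam1, had 39.3, 48.3 and 42.8 CPM in the control libraries and 623, 625 and 611 CPM in the LPS libraries (log2 fold change 3.83, SE 0.06). The 4 rises were without overlap. Pecam1 (log2 fold change -4.19, SE 0.33), Itga6 (log2 fold change -3.94, SE 0.07) and Itgb5 (log2 fold change -3.15, SE 0.05) fell, and Itgax was not called, with 495, 461 and 611 CPM in control and 432, 409 and 497 CPM with LPS (adjusted p = 0.219). The list gave 13 higher and 8 lower of 22 (median 0.66).

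G protein-coupled receptors of lipids and metabolites were called higher in 9 of 24 cases and lower in 14 (median -1.68). Hcar2, the receptor of nicotinic acid and of beta-hydroxybutyrate, had 0.310, 2.20 and 2.40 CPM in control against 157, 172 and 182 CPM with LPS (log2 fold change 6.69, SE 0.32, adjusted p = 1.03e-06, or 9.09 against control replicate 1 alone). Gpr84, a receptor of medium-chain fatty acids, had 1.24, 2.70 and 1.35 CPM in the control libraries and 46.1, 42.8 and 36.1 CPM in the LPS libraries (log2 fold change 4.55, SE 0.20). Gpr85 had 5.18, 5.27 and 5.79 CPM in control and 66.1, 65.8 and 63.2 CPM with LPS (log2 fold change 3.59, SE 0.08). Each of the 3 was higher in all LPS libraries. Cnr2, the peripheral cannabinoid receptor, had 69.6, 68.1 and 69.7 CPM in control against 0.264, 0.350 and 0.601 CPM with LPS (log2 fold change -7.41, SE 0.14, adjusted p = 1.42e-20). Gpr183, the oxysterol receptor, had 25.1, 26.3 and 26.1 CPM in the control libraries and 0.264, 0.210 and 0.354 CPM in the LPS libraries (log2 fold change -6.53, SE 0.24). Lpar6, a receptor of lysophosphatidic acid, had 163, 164 and 164 CPM in control and 2.31, 1.75 and 2.02 CPM with LPS (log2 fold change -6.33, SE 0.10). Gpr65, a proton sensor, had 79.5, 86.6 and 76.4 CPM in control against 1.58, 1.15 and 1.77 CPM with LPS (log2 fold change -5.75, SE 0.13). S1pr1, the receptor of sphingosine 1-phosphate, had 176, 188 and 177 CPM in the control libraries and 4.88, 5.70 and 4.24 CPM in the LPS libraries (log2 fold change -5.19, SE 0.08).

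Enzymes and transporters of arginine, itaconate and polyamines were called higher in 12 of 20 cases and lower in 6 (median 0.64). Nos2, the inducible nitric oxide synthase, had 0, 1.79 and 1.52 CPM in control and 479, 490.4 and 509.7 CPM with LPS (log2 fold change 8.78, SE 0.43, adjusted p = 1.35e-06, and at least 5838-fold above control replicate 1). Gch1, which makes the first intermediate of its cofactor tetrahydrobiopterin, had 21.8, 23.9 and 23.4 CPM in control against 230.3, 240 and 238 CPM with LPS (log2 fold change 3.36, SE 0.05), while Pts (log2 fold change -1.50, SE 0.12) and Spr (log2 fold change -1.29, SE 0.09), the next steps, fell. The arginine importers Slc7a2, with 48.3, 68.6 and 81.4 CPM in the control libraries and 2468, 2491 and 2539 CPM in the LPS libraries (log2 fold change 5.24, SE 0.20, adjusted p = 1.43e-07), and Slc7a1, with 11.9, 14.9 and 16.1 CPM in control and 700, 691 and 666 CPM with LPS (log2 fold change 5.58, SE 0.11, adjusted p = 1.20e-12), both rose. Acod1 had 0.676, 46.6 and 49.9 CPM in control against 5693, 5747 and 5519 CPM with LPS (log2 fold change 7.45, SE 1.16, adjusted p = 9.10e-04, or 13.03 against control replicate 1 alone). Arg1, the arginase of alternatively activated macrophages, had 23 counts over all 9 libraries and could not be tested.

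Prostaglandin and leukotriene genes were called higher in 7 and lower in 10 of 18 cases (median log2 fold change -1.02). Ptgs2 (COX-2) had 1.21, 17.7 and 18.01 CPM in the control libraries and 2793, 2903 and 2841 CPM in the LPS libraries (log2 fold change 7.85, SE 0.77, adjusted p = 7.28e-05, or 11.20 against control replicate 1 alone). Ptges, the terminal prostaglandin E synthase, had 4.98, 11.7 and 11.8 CPM in control and 287, 289 and 286 CPM with LPS (log2 fold change 4.91, SE 0.27, or 5.85 against control replicate 1 alone). Ptgs1 (COX-1) had 32.4, 30.97 and 29.5 CPM in control against 2.93, 4.20 and 1.20 CPM with LPS (log2 fold change -3.47, SE 0.29, adjusted p = 5.31e-06). The prostaglandin D synthase Hpgds had 184, 174 and 189 CPM in the control libraries and 38.3, 38.5 and 44.9 CPM in the LPS libraries (log2 fold change -2.17, SE 0.06). The thromboxane synthase Tbxas1 had 172, 177 and 175 CPM in control and 40.3, 38.8 and 38.4 CPM with LPS (log2 fold change -2.16, SE 0.06). The last 3 genes were lower in every LPS library. On the leukotriene side Alox5ap (log2 fold change -2.18, SE 0.11) and Lta4h (log2 fold change -1.64, SE 0.09) fell, and so did the lipoxygenase Alox5, which was under 2 CPM in every library. The receptors of prostaglandin E Ptger2 (log2 fold change -0.78, SE 0.08) and Ptger4 (log2 fold change -1.87, SE 0.16) fell, and the prostacyclin receptor Ptgir rose (log2 fold change 3.00, SE 0.07).

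Genes of iron and heme handling were called higher in 6 and lower in 12 of 20 cases (median log2 fold change -0.88). Slc40a1 (ferroportin), the exporter of iron from macrophages, had 366, 349.6 and 262 CPM in control against 11.1, 9.69 and 9.65 CPM with LPS (log2 fold change -5.00, SE 0.15, adjusted p = 3.77e-09). The importers Slc39a14, with 11.2, 14.5 and 16.5 CPM in the control libraries and 375, 387 and 355 CPM in the LPS libraries (log2 fold change 4.72, SE 0.10, adjusted p = 5.83e-13), and Slc11a2, with 49.95, 52.4 and 52.5 CPM in control and 279, 284 and 278 CPM with LPS (log2 fold change 2.44, SE 0.05), rose, and the siderophore-binding Lcn2 had 0.366, 0.161 and 0.635 CPM in control against 12.8, 11.5 and 11.5 CPM with LPS (log2 fold change 4.94, SE 0.25). The exporter was lower and these 2 importers higher than control in every LPS library. The transferrin receptor Tfrc, which also takes up iron, fell (log2 fold change -1.18, SE 0.14), as did the endosomal ferrireductase Steap3 (log2 fold change -4.26, SE 0.19) and Blvra, a biliverdin reductase (log2 fold change -2.42, SE 0.07).  Zinc transporters and metallothioneins were called higher in 13 of 17 cases and lower in 4 (median 0.83). The importer Slc39a8 had 7.32, 6.32 and 6.87 CPM in the control libraries and 47.1, 50.3 and 46.6 CPM in the LPS libraries (log2 fold change 2.81, SE 0.08). The exporter Slc30a1 had 72.9, 72.7 and 67.98 CPM in control and 262, 258 and 263 CPM with LPS (log2 fold change 1.87, SE 0.11), and the metal-binding proteins Mt1 (log2 fold change -1.23, SE 0.15) and Mt2 (log2 fold change 1.22, SE 0.17) went opposite ways. Exons of other annotated genes, on either strand, overlap 73.5% of the exon length of Mt2, so its counts are uncertain.

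Genes that charge transfer RNAs with amino acids rose almost as a block. Of 20 cytosolic aminoacyl-tRNA synthetases 19 were called higher and 0 lower, with a median log2 fold change of 2.44. Aars, the enzyme for alanine, had 64.3, 70.7 and 68.8 CPM in control against 741, 745 and 718 CPM with LPS (log2 fold change 3.43, SE 0.05, adjusted p = 4.80e-22). Yars, for tyrosine, had 4.53, 3.88 and 4.77 CPM in the control libraries and 48.97, 47.1 and 46.2 CPM in the LPS libraries (log2 fold change 3.43, SE 0.10). Iars, for isoleucine, had 57.6, 60.01 and 62.5 CPM in control and 506, 509.8 and 499.9 CPM with LPS (log2 fold change 3.07, SE 0.05). The LPS libraries lay close together, above every control library. The exception was Dars, with 42.8, 45.9 and 44.6 CPM in control against 43.6, 43.4 and 42.1 CPM with LPS (adjusted p = 0.494). Vars, also called, was under 1 CPM in every library and lies in the stretch of chromosome 17 named above. Amino acid transporters were called higher in 15 of 21 cases and lower in 4 (median 1.01). Slc7a5, with 3.07, 4.98 and 3.89 CPM in the control libraries and 307, 306 and 280 CPM in the LPS libraries (log2 fold change 6.22, SE 0.29, adjusted p = 1.01e-06), and its partner chain Slc3a2, with 338, 361 and 348 CPM in control and 1779, 1801 and 1769 CPM with LPS (log2 fold change 2.35, SE 0.06), form the main importer of leucine. Slc7a11, the cystine importer, had 23.03, 24.1 and 30.9 CPM in control against 623, 596 and 645 CPM with LPS (log2 fold change 4.58, SE 0.15). Slc1a4, a transporter of alanine and serine, had 0.253, 0.402 and 0.303 CPM in the control libraries and 36.999, 39.9 and 36.2 CPM in the LPS libraries (log2 fold change 6.86, SE 0.18). Slc43a2, an exporter of neutral amino acids, fell, with 1067, 1056 and 1006 CPM in control and 90.4, 92.8 and 90.1 CPM with LPS (log2 fold change -3.52, SE 0.05, adjusted p = 3.21e-22).

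Glutathione, NRF2 and pentose phosphate genes had 6 higher, 10 lower and 10 in neither direction among 26 tested (median -0.10), and 18 lower with library totals. Nfe2l2 (NRF2) itself was not called, with 292, 304 and 310.3 CPM in control against 296, 284 and 294 CPM with LPS (adjusted p = 0.269). Txnrd1, thioredoxin reductase, rose (325 ± 26.1 CPM in control and 1476 ± 20.2 with LPS; log2 fold change 2.18, SE 0.06) and so did Prdx5 (147 ± 10.7 CPM in control and 566 ± 14.3 with LPS; log2 fold change 1.95, SE 0.05). Gpx1 (log2 fold change -1.68, SE 0.06), Mgst1 (log2 fold change -1.80, SE 0.05) and the pentose phosphate enzymes Tkt (log2 fold change -1.30, SE 0.04), Taldo1 (log2 fold change -1.26, SE 0.06) and G6pdx (log2 fold change -1.26, SE 0.04) fell.

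Genes that build ribosomes rose together by moderate steps. Of 25 nucleolar and ribosome biogenesis genes 23 were called higher and 1 lower, with a median log2 fold change of 1.37. Rrs1, an assembly factor of the large subunit, had 21.96, 20.96 and 24.03 CPM in the control libraries and 251, 253 and 248 CPM in the LPS libraries (log2 fold change 3.49, SE 0.06, adjusted p = 3.47e-21). Gnl3 (nucleostemin) had 19.01, 18.1 and 22.04 CPM in control and 139, 148 and 159 CPM with LPS (log2 fold change 2.91, SE 0.09). Mitochondrial ribosomal proteins rose less, with 19 called higher and 4 lower of 26 and a median of 0.36, and with library totals the counts became 11 and 7. Proteasome subunits and activators were called higher in 25 of 27 cases and lower in 0, with a median of 0.82. The interferon-inducible activator Psme2 had 38.3, 42.000 and 34.5 CPM in control against 199, 205 and 216 CPM with LPS (log2 fold change 2.43, SE 0.08). The core subunit Psma6 had 64.2, 71.1 and 66.5 CPM in the control libraries and 219, 207 and 205 CPM in the LPS libraries (log2 fold change 1.64, SE 0.05), and Psma1 (log2 fold change 0.08, SE 0.05) and Psmb1 (log2 fold change 0.05, SE 0.05) were not called.

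Autophagy genes gave a near-even split, 13 higher and 10 lower of 27 (median -0.01), in which the receptors stood out. Sqstm1 (p62) had 551, 635 and 617 CPM in control and 10072, 9913 and 9724 CPM with LPS (log2 fold change 4.04, SE 0.07, adjusted p = 3.48e-21). Optn, another autophagy receptor, had 27.004, 27.6 and 25.6 CPM in control against 122, 124 and 134 CPM with LPS (log2 fold change 2.25, SE 0.05). Atg7, the enzyme that activates the ubiquitin-like autophagy proteins, fell, with 83.8, 81.4 and 82.2 CPM in the control libraries and 19.2, 24.2 and 21.2 CPM in the LPS libraries (log2 fold change -1.94, SE 0.07), and Map1lc3b fell less (log2 fold change -0.64, SE 0.05). Among BCL2 family and death genes 13 of 25 were called higher and 8 lower (median 0.15). Bmf, a death-promoting member, had 38.2, 38.1 and 34.5 CPM in control and 0.0660, 0.315 and 0.177 CPM with LPS (log2 fold change -7.62, SE 0.31, adjusted p = 3.81e-11). Cflar (c-FLIP), the inhibitor of caspase 8, had 112, 117 and 129 CPM in control against 1738, 1767 and 1809 CPM with LPS (log2 fold change 3.89, SE 0.06, adjusted p = 3.82e-22), while Casp8 (log2 fold change -1.86, SE 0.07) and Casp9 (log2 fold change -2.95, SE 0.12) fell. The survival genes Bcl2a1a (log2 fold change 6.16, SE 0.11, or 6.79 against control replicate 1 alone), Bcl2a1b (log2 fold change 4.36, SE 0.07) and Bcl2a1d (log2 fold change 5.30, SE 0.10) rose, but share 79.6%, 88.8% and 89.1% of their words with other transcripts, so the division of counts between them is uncertain. p53 target genes were called higher in 12 of 25 cases and lower in 12 (median 0.09). Cdkn1a, the cell cycle inhibitor p21, had 109, 110.4 and 100.5 CPM in the control libraries and 1544, 1520 and 1358 CPM in the LPS libraries (log2 fold change 3.79, SE 0.06). The stress gene Gadd45b had 30.5, 30.4 and 30.1 CPM in control and 529.8, 538 and 545 CPM with LPS (log2 fold change 4.15, SE 0.05). Sesn2, a sensor of leucine, had 20.6, 22.97 and 19.6 CPM in control against 207, 205 and 199 CPM with LPS (log2 fold change 3.27, SE 0.06). The groups did not overlap for these 3 genes. Sesn1, a relative of Sesn2, fell, with 191, 187 and 183 CPM in the control libraries and 8.08, 8.15 and 10.2 CPM in the LPS libraries (log2 fold change -4.41, SE 0.08, adjusted p = 2.45e-21).

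Of 10 tested guanylate-binding proteins 7 were called higher and 1 lower, and of 6 tested immunity-related GTPases in the list 0 were called higher and 6 lower. Interferon is known to induce both families. Gbp6 and Gbp10, among the rises, share 74.2% and 89.8% of their words with other transcripts. Tgtp2, among the falls, shares 90.5%, so counts of these copies are uncertain. The promoters of 3 guanylate-binding proteins are shown with their interferon-stimulated response element motif, GAAA, any 2 bases and GAAA on either strand, and the kappa B motif in capitals (RefSeq, GRCm38.p6, plus strand, 250 bases before to 50 after the start): chr3:142496684-142496983 for Gbp5, chr3:142559794-142560093 for Gbp3 and chr3:142620413-142620712 for Gbp2.
Gbp5: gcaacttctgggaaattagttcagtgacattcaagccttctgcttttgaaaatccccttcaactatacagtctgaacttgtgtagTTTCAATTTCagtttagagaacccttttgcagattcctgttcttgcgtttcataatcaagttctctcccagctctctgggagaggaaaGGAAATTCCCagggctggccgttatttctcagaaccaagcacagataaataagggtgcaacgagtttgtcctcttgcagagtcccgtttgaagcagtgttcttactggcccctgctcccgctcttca
Gbp3: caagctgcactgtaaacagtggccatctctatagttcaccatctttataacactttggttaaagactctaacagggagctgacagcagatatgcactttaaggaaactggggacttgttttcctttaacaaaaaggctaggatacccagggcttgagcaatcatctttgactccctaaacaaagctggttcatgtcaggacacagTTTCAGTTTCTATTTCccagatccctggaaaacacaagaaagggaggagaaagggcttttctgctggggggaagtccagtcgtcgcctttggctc
Gbp2: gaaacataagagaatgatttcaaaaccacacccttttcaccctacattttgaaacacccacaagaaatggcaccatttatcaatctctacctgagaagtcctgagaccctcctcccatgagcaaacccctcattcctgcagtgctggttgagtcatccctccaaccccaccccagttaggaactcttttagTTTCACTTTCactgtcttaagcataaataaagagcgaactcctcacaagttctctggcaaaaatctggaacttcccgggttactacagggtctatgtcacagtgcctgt
Gbp5 holds 1 of each motif, Gbp3 holds 2 overlapping matches to the response element and Gbp2 holds 1.

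Gbp5 had 5.72, 21.4 and 23.1 CPM in control and 2669, 2675 and 2617 CPM with LPS (log2 fold change 7.30, SE 0.51, adjusted p = 1.06e-05, or 8.86 against control replicate 1 alone). Gbp3 had 9.35, 12.2 and 10.2 CPM in control against 781, 801 and 816 CPM with LPS (log2 fold change 6.24, SE 0.12, adjusted p = 1.13e-12). Gbp2 had 11.01, 15.5 and 13.8 CPM in the control libraries and 852, 853 and 874 CPM in the LPS libraries (log2 fold change 6.00, SE 0.13, adjusted p = 9.08e-11). Irgm1 had 42.3, 40.4 and 35.2 CPM in control and 13.2, 15.1 and 16.7 CPM with LPS (log2 fold change -1.39, SE 0.13). Ifi47 had 13.3, 16.7 and 9.96 CPM in control against 2.51, 2.69 and 2.51 CPM with LPS (log2 fold change -2.37, SE 0.23) and Irgm2, with 4.73, 5.62 and 3.48 CPM in the control libraries and 0.264, 0.140 and 0.106 CPM in the LPS libraries, fell as well (log2 fold change -4.72, SE 0.36). All 3 of the latter were lower in every LPS library. Mx2 fell (log2 fold change -1.18, SE 0.22) and Mx1 was not called, with 24.1, 17.4 and 14.4 CPM in control and 17.1, 17.03 and 15.9 CPM with LPS (adjusted p = 0.323). In the list of 19 tested GTPases 7 were called higher, all of them guanylate-binding proteins, and 9 lower (median log2 fold change -0.34). Of the remaining guanylate-binding proteins, Gbp9 fell (log2 fold change -0.34, SE 0.10) but was not called without LPS replicate 3, and Gbp4 (log2 fold change 0.39, SE 0.28) and Gbp8 (log2 fold change -1.04, SE 0.52) were not called.

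Non-coding genes took part. Mir155hg, the host gene of miR-155, had 0.0282, 0.509 and 1.19 CPM in control against 117, 119.9 and 134 CPM with LPS (log2 fold change 7.73, SE 0.32, adjusted p = 3.17e-07, with a ratio to control replicate 1 of 4392, interval 788 to 173462). Mir22hg, the host of miR-22, had 36.4, 35.9 and 38.8 CPM in the control libraries and 136, 139 and 161 CPM in the LPS libraries (log2 fold change 1.97, SE 0.06). The mature sequences from RefSeq (GRCm38.p6) are given with the seed, bases 2 to 8, in capitals. That of miR-155-5p lies at chr16:84714143-84714165 and that of miR-22-3p at chr11:75463772-75463793, both on the plus strand and inside the host genes.
miR-155-5p: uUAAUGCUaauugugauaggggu
miR-22-3p: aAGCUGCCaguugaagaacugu
The 2 seeds differ, and these libraries count the host transcripts, not the mature miRNAs. Ptgs2os2, a non-coding gene beside Ptgs2, had 0, 0.0268 and 0 CPM in control and 5.44, 5.67 and 7.14 CPM with LPS. Neat1, the scaffold RNA of paraspeckles, fell, with 2167, 2046 and 2117 CPM in control and 435, 438 and 537 CPM with LPS (log2 fold change -2.17, SE 0.07, adjusted p = 9.43e-15), while Malat1 was not called, with 1097, 1034 and 1251 CPM in control against 948, 1061 and 1250 CPM with LPS (adjusted p = 0.756). Of 17 host and long non-coding genes tested 13 were called higher and 3 lower (median 1.46). The strand handling of the counting, not given in the sources used here, leaves reads of antisense partners unresolved.

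Several changes fell on stretches of neighbouring genes. Among 12876 tested genes placed on the GRCm38 annotation, 60 runs of at least 4 neighbours rose at least 2-fold (283 genes, longest run 8) and 102 fell (483 genes, longest run 11). The guanylate-binding protein cluster on chromosome 3 (142493978 to 142638008) rose as 1 run, with Gbp5, Gbp7, Gbp3, Gbp2b, Gbp2 and Mir6381 at log2 fold changes of 7.30, 4.42, 6.24, 6.23, 6.00 and 6.70. On chromosome 2 (129297370 to 129375748) Gm14023, Il1a, Il1b and Il1bos rose side by side, by 5.25, 6.85, 5.99 and 7.51. Against control replicate 1 alone Il1a rose by 12.07 and Il1b by 6.77. On chromosome 17 (57091370 to 57228136) Tnfsf9, Cd70, Tnfsf14 and C3 rose, by 7.37, 7.64, 2.42 and 2.71. Against control replicate 1 alone Tnfsf9 rose by 10.62, and Cd70, with 0 counts there, was at least 30.98-fold higher.

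The Cd300 cluster on chromosome 11 (114765388 to 115037769) was one of the 2 longest falling runs, with 11 genes that include Cd300a, Cd300lb, Cd300ld and Cd300c2. Some of its other copies share most of their words with further transcripts, 96.2% for Cd300ld4 and 100% for Cd300ld5. The lectin genes Clec4a3, Clec4a4, Clec4b1, Clec4a2 and Clec4n fell as a run on chromosome 6 (122952515 to 123247021), while Clec4d and Clec4e rose. On chromosome 5 (120648812 to 120824163) the antiviral oligoadenylate synthetases Oas2 (from 113 to 5.63 CPM, -4.32) and Oas3 (from 91.7 to 4.75 CPM, -4.27) fell next to Oas1c and Oas1b. The stearoyl desaturases Scd3, Scd2, Scd4 and Scd1 fell on chromosome 19 (44203269 to 44555440), of which Scd2 alone was abundant (from 69.7 to 0.920 CPM, -6.24). The flagellin sensor genes Naip5 (-2.30) and Naip6 (-2.06) fell on chromosome 13, and share 52.6% and 35.04% of their words with other transcripts.

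Promoter motifs were counted on both strands in the RefSeq windows of the 100 called genes that rose most and the 100 that fell most, at 5 CPM or more. A window was found for 73 of the rises, 71 of the falls and 9752 of all tested genes. The kappa B motif (GGG, any 2 bases, TT, any base and CC) was in 9.59% of the rises, 4.23% of the falls and 5.41% of all. The rises that hold it are Bcat1, Il6, Cxcl3, Cxcl1, Cxcl2, Gbp5 and Pdpn. The response element (GAAA, any 2 bases and GAAA) was in 12.3%, 1.41% and 3.16%. The AP-1 motif TGANTCA was in 15.1%, 9.86% and 5.17%. The cyclic AMP element TGACGTCA was in 1.37%, 0% and 3.24%, the E-box CACGTG in 5.48%, 7.04% and 10.3%, and the CCAAT box in 37.0%, 38.0% and 38.6%. These shares rest on few promoters (7 and 9 rises for the first 2 motifs) and carry no test.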

How the data were processed

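The authors deposited a table of raw read counts per gene symbol, aligned with HISAT2 to mm10 per the submitters' processing notes. Its counting tool, annotation, versions and strand handling were not given in the sources used here. Libraries held 29633411 to 32798920 counts. The members and gene lists were chosen with earlier results of these data known. Symbols were matched to the GENCODE M21 annotation of GRCm38 for position, exon length and 31-base words shared with other transcripts, and to RefSeq (GRCm38.p6) for promoters and miRNAs.

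Counts were fitted with edgeR 4.0.16 (limma 3.58.1, R 4.3.3) across all 9 libraries and 3 groups, by the quasi-likelihood test with robust dispersion, TMM scaling and a filter on low counts (minimum 10), with 6 residual degrees of freedom and Benjamini-Hochberg adjustment over 14026 genes (threshold 0.05). The SE is the log2 fold change divided by the root of the F statistic. On data simulated for this comparison from 13634 genes the fit recovered 75.4% of 1.5-fold, 83.1% of 2-fold and 93.7% of 4-fold changes. It made 11 false calls among 13441 unchanged genes. Only 65, 65 and 63 tested genes were changed at these sizes, in random directions, whereas 79.8% of the real genes were called. The simulation therefore cannot show errors that come from the scaling when most genes change. Named genes were the 15 largest rises and the 15 largest falls with non-overlapping groups and 5 CPM or more in the higher group, the 10 largest rises against control replicate 1, and up to 4 rises and 4 falls per list. Other genes were named after their values had been seen, and some items are not reported here. Alternatives were library totals, DESeq2 size factors, DESeq2 1.42.0, no filter, a fit of the 6 libraries, a replicate block, each library left out, and control replicate 1 as the only control. Same-numbered control and LPS libraries did not deviate together (correlations of -0.01, -0.02 and 0.02). With 3 libraries in each group this cannot exclude a pairing by replicate number, and the main fit treated the libraries as unpaired. Tables and figures were made with Python 3.11.15, pandas 2.3.3 and matplotlib 3.10.9.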

Additional observations from a re-analysis of the deposited data

How the results depend on the processing

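Most calls held under the alternatives run. Genes called higher with LPS numbered 5390 and ranged from 4283 (library totals) to 5715 (no filter on low counts), and genes called lower numbered 5801 and ranged from 5189 (control replicate 1 as the only control) to 7084 (library totals). Leaving out 1 library at a time gave 5257 to 5389 higher and 5665 to 5721 lower. DESeq2 gave 5491 higher and 5606 lower. Library totals lost 1007 of the 11191 calls and turned 100 to the opposite direction. Control replicate 1 as the only control lost 1298 and turned 0.

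With library totals some list counts moved by over 1.5 times. Fc receptors called higher went from 1 to 0, ubiquitin editors called lower from 2 to 5, CXC and CX3C ligands called lower from 1 to 2, tRNA synthetases called lower from 0 to 1, glutathione and pentose phosphate genes called lower from 10 to 18, proteasome genes called lower from 0 to 2, and mitochondrial ribosomal proteins from 19 to 11 higher and from 4 to 7 lower. This scaling lowers every log2 fold change by about the same amount. With control replicate 1 alone SOCS genes called lower went from 2 to 1. With 1 library left out, ubiquitin editors called lower ranged from 1 (without LPS replicate 3) to 2, and CXC and CX3C ligands called lower from 1 to 2 (without LPS replicate 2). Of the 466 genes followed individually 448 kept direction and side of the threshold with library totals, 457 with control replicate 1 alone and 459 to 464 with 1 library left out. The log2 fold changes that turned sign with library totals were Cd302 (-0.10), Fcer1g (-0.10), and 6 that were not called before: B2m (-0.17), Ikbkb (-0.27), Psma1 (-0.19), Psmb1 (-0.22), Tlr6 (-0.19) and Ywhaz (-0.22). Against control replicate 1 alone Mx1 was called lower (-0.53) and B2m higher (0.18), and 37 genes moved by over 1 on the log2 scale.

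With the replicate number as a block, 5348 genes were called higher and 5788 lower and 99 calls were lost. The block moved no list count by over 1.5 times, and among the genes followed it changed the call of Csf2ra and Itgax, which became lower (-0.10 and -0.22). Depth limits genes of few counts in one group, whose fold changes depend on the floor.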

Other observations

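Of 18 tested genes in common use as references for normalisation, 8 were called higher and 8 lower by edgeR's quasi-likelihood test, close to the 38.4% and 41.4% of all genes (median log2 fold change 0.08). Actb, the cytoskeletal actin, had 4143, 4229 and 4144 CPM in the control libraries and 1691, 1647 and 1607 CPM in the LPS libraries (log2 fold change -1.34, SE 0.05, adjusted p = 1.38e-16). Hprt, an enzyme of purine salvage, had 101, 107 and 108 CPM in control and 53.7, 55.2 and 52.5 CPM with LPS (log2 fold change -0.97, SE 0.05, adjusted p = 3.31e-13), and the lysosomal enzyme Gusb fell (log2 fold change -1.22, SE 0.04). The 2 genes that were not called were B2m, with 1046, 1185 and 1066 CPM in control against 1179, 1179 and 1182 CPM with LPS (log2 fold change 0.10, SE 0.05, adjusted p = 0.0652, and called against control replicate 1 alone at 0.18, adjusted p = 0.0111), and Ywhaz, with 285, 281 and 286 CPM in the control libraries and 304, 286 and 294 CPM in the LPS libraries (log2 fold change 0.05, SE 0.04, adjusted p = 0.270). Gapdh, a major glycolytic enzyme, stood at 3.41, 3.08 and 3.06 CPM in control and 5.47, 5.77 and 6.65 CPM with LPS, and 27.2% of its 31-base words occur in other annotated transcripts, so its level here is uncertain.

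Some gene families taken by their names, after the values had been seen, had shares apart from 38.4% higher and 41.4% lower. Of 16 tested histone genes 0 were called higher and 10 lower, with a median log2 fold change of -1.15. Of 77 tested mitochondrial ribosomal protein genes 44 were called higher and 18 lower (median 0.26). The 300 numbered zinc finger genes stood nearer to all genes, with 97 (32.3%) called higher and 138 (46%) lower (median -0.18). The 213 solute carriers, at 87 higher and 95 lower, stood close to all genes.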
